A study of Mus musculus with 20 samples.

Results

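A set of 9 genes of amino acid breakdown in the liver were followed through maps of acetylated histone H3 from young and old mouse hepatocytes, the main metabolic cells of the liver. They were Tat, Hpd, Hgd, Gstz1 and Fah of the tyrosine pathway, Hal and Uroc1 of the histidine pathway, Sds of serine breakdown and Gls2 of glutamine breakdown. The members were these 9 of 21887 protein-coding genes in RefSeq's annotation of GRCm38.p6, the assembly behind mm10. For each gene, every called H3K27ac region that touched the gene span extended by 5 kb on both sides was taken, and the scaled tags and the lengths of these regions were summed in each library. A region was counted whole even where it reached beyond that window.

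H3K27ac, an acetylation of histone H3 found at active promoters and enhancers, had been profiled by chromatin immunoprecipitation and sequencing in hepatocytes obtained by perfusion of the liver. The young group was 5 libraries from C57BL/6N mice aged 5 months and the old group was 5 libraries from C57BL/6J mice aged 23 months. Age and substrain cannot be told apart in this design. The labels name no drug, diet or engineered allele and give no mouse for each library. The p-values therefore describe library-to-library spread, which may be technical. Because only sequenced tags scaled within each library were used, a difference in the total amount of acetylation cannot be read from these values. Human chromatin was added as a spike-in, per the labels, and was not used here. In such bulk libraries fewer cells of a type and less signal per cell cannot be told apart.

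Tyrosine breakdown runs from Tat, tyrosine aminotransferase, through Hpd, hydroxyphenylpyruvate dioxygenase, Hgd, homogentisate dioxygenase, and Gstz1, maleylacetoacetate isomerase, to Fah, fumarylacetoacetase, which releases fumarate and acetoacetate. Hal, histidine ammonia-lyase, turns histidine into urocanate, which Uroc1, urocanate hydratase, passes on towards glutamate. Sds, serine dehydratase, splits serine into pyruvate and ammonia, and Gls2, the liver type of glutaminase, releases ammonia from glutamine. Tat and Sds are known as genes that glucocorticoids and glucagon induce in fasting liver. Inherited loss of FAH causes a severe form of tyrosinaemia and loss of HGD causes alkaptonuria.

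RefSeq's promoter table for GRCm38.p6 held start sites for 7 of the 9 members. Stretches of 250 bases before the start site are shown for Tat, the tyrosine gene with the largest age difference below, for Hpd and Fah at later steps of the same pathway, and for Hal of the histidine pathway. In each of the 4 the start site lay inside a called region in 10 of 10 libraries. The sequences run 5′ to 3′ on the strand of the gene, and capitals mark matches to the CCAAT box (CCAAT), the TATA box (TATAAA) and the GC box (GGGCGG) on either strand.
Tat, chr8:109990186-109990435, plus strand: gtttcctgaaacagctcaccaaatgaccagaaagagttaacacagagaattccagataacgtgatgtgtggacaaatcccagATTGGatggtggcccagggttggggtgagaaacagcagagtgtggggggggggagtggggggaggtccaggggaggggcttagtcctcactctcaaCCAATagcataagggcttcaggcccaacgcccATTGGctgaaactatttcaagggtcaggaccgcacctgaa
Hpd, chr5:123182724-123182973, minus strand: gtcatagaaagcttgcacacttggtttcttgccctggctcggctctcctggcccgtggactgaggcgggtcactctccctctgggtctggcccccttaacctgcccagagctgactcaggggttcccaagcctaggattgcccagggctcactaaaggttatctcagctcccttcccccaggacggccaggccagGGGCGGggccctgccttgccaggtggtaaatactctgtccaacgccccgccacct
Fah, chr7:84605943-84606192, minus strand: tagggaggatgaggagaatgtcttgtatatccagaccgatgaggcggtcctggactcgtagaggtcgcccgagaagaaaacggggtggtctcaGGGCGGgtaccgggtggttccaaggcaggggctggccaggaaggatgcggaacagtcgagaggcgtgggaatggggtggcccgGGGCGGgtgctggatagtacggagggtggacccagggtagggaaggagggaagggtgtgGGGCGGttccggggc
Hal, chr10:93488518-93488767, plus strand: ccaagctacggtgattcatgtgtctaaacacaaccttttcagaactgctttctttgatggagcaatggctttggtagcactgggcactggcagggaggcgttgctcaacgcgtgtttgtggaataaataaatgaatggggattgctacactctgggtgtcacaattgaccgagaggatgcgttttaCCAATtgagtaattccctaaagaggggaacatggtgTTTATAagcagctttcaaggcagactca

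The promoters of the pathway were unlike each other in composition. The stretch before Tat held 3 CCAAT matches, at 168, 72 and 40 bases before the start site, and that before Fah held 3 GC boxes, at 157, 74 and 15 bases. Hpd had 1 GC box, 55 bases before the start. Hal had a TATA match 28 bases before the start and a CCAAT match at 64 bases. Among all 32851 promoter windows of the same length 33.8% held a CCAAT match, 32.7% a GC box and 12.4% a TATA box, so single matches were common. The E box CACGTG (6.02% of all windows), the cyclic AMP response element TGACGTCA (1.55%), the HNF4 site CAAAGTCCA (0.384%), the glucocorticoid response element (GNACA and TGTNC, 3 bases apart, 0.387%) and the HNF1 site (GTTAAT and ATTNAC, 1 base apart, 0.0548%) had no match in any of the 8 windows of the 7 members, which says only that these letters are not there. None of the motifs searched shared bases with another in the 4 printed stretches. GC content was 64.4% at Fah, 62.8% at Hpd, 53.6% at Tat and 45.6% at Hal, against a median of 52.4% over all windows. CpG counts in the 250 bases ran from 0 at Uroc1 and 1 at Hgd to 16 at Fah, with a median of 6 over all windows.

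All 9 genes carried called regions in all 10 libraries, as did 9703 of the 21887 genes, and the tests below were made across these 9703. Libraries held 6295930 to 15544145 tags and 21213 to 30195 regions. HOMER's estimate of the share of tags in called regions, its IP efficiency, ran from 34.63% to 48.23% in young and from 24.53% to 35.84% in old libraries. Old replicate 5 had the lowest share and the fewest tags, and young replicate 5 had the most tags and an estimated fragment length of 620 bp against 414 to 444 bp in the others. Without centring, the median gene was lower in old libraries by a log2 difference of −0.34, so the libraries were centred on their median gene and log2 differences are relative to it. The cell type was checked by marker windows. All 6 hepatocyte markers had regions in all 10 libraries. No library had a region at 7 of 8 leukocyte, 5 of 6 stellate, 3 of 5 bile duct and 1 of 6 endothelial markers, while Stab2 (endothelial) and Sox9 (bile duct) had regions in all 10. The remaining markers of these 4 lists had regions in 2 to 9 libraries. The summed tags of the leukocyte list were 0 to 203.5 in young and 52.4 to 139.6 in old libraries, and those of the endothelial list 264 to 377 and 125 to 452. The stellate list had 0 to 144 and 44.5 to 103, and the bile duct list 253 to 580.4 and 222 to 520.1, so the ages overlapped in each of these 4 lists. The hepatocyte list, with 4382 to 5532 in young and 2367 to 3944 in old libraries, did not overlap. These sums were of scaled tags without centring. On that scale 9.23% of all genes tested separated the ages with old libraries lower. After centring, all 6 hepatocyte markers still had a log2 difference, old minus young, below 0, with a median of −0.30. Of these 6, 2 had an unadjusted limma p under 0.05 and 0 passed after adjustment. Among all genes tested 49.6% were below 0 and 13.7% had such a p. Per kb of called length 2 of the 6 were below 0, with a median of 0.06. Stab2 and Sox9 had centred differences of 0.13 and 0.18. The part of any of these levels in the differences below was not tested.

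Old against young hepatocytes showed no member past the threshold. Of the 9 genes 0 passed an adjusted p of 0.05 by limma, against 0.216% of all genes tested (21 genes). By edgeR 0 passed, against 47 of the 9703 genes tested, and by DESeq2 0, against 298 of the 9703. With an unadjusted p under 0.05 there were 2, Sds and Tat, both with lower values in old hepatocytes. Of all genes 13.7% had such a p by limma, and 7.12% had one with a lower value in old. The log2 difference of window tags was below 0 at 4 members and above 0 at 5, with a median of 0.02, and 49.6% of all genes tested were below 0.

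**Figure D1:**
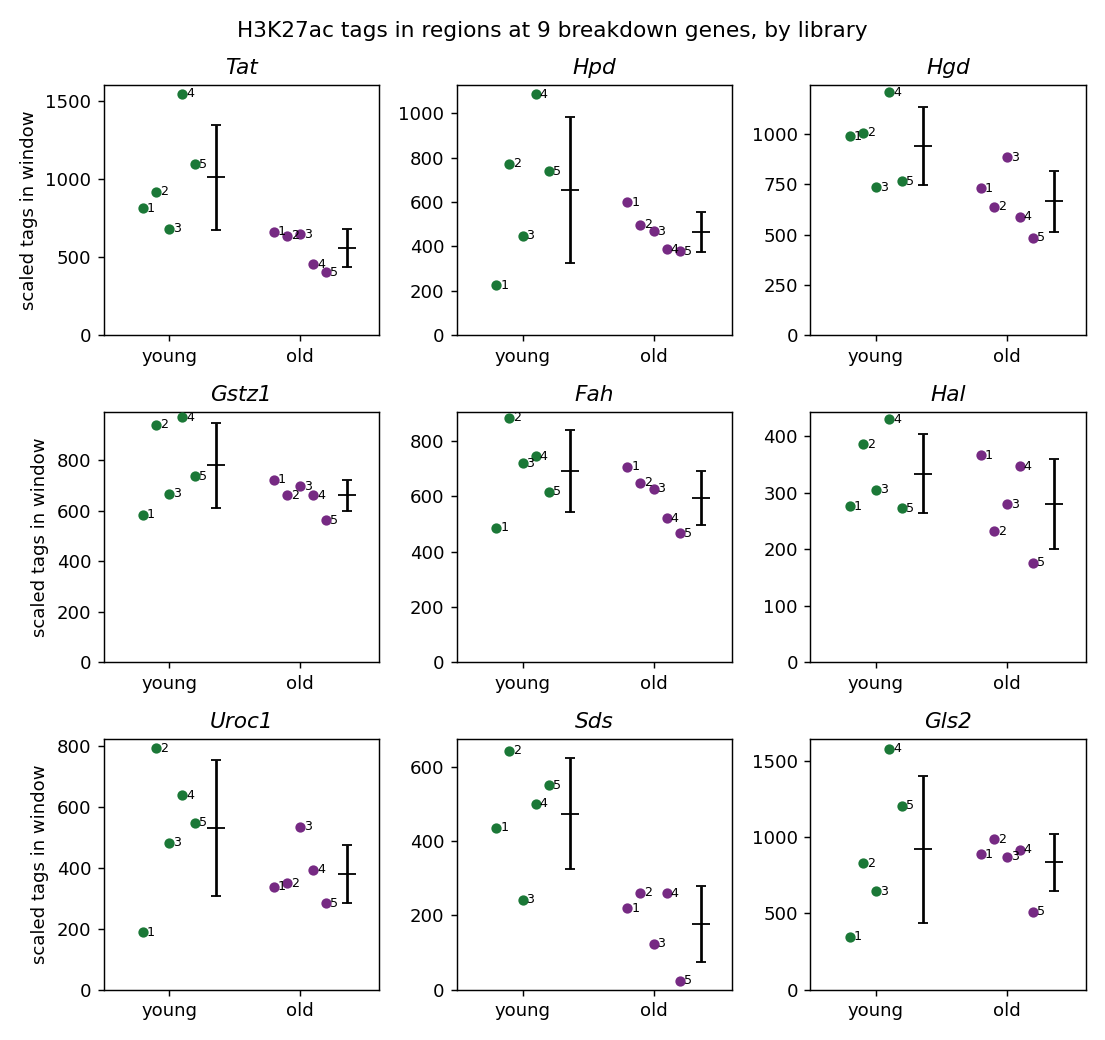
Scaled H3K27ac tags summed over the regions of each gene's window (vertical axes, from 0) in the 5 young and 5 old libraries; points are libraries with their replicate number, and the bar shows mean and SD. At Tat all young points (680.3 to 1544) lie above all old ones (402 to 662), and at Sds old replicate 5 stands at 23.8.

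The serine dehydratase gene Sds (gene ID 231691, chromosome 5, 120476547 to 120483932) had the largest difference of the 9. Its window held 436, 643, 242, 501 and 550.3 scaled tags in young replicates 1 to 5 and 219, 261, 124, 259.8 and 23.8 in old replicates 1 to 5. The ages overlapped only through young replicate 3, which lay below old replicates 2 and 4. The young mean was 474 ± 150.5 and the old mean 177 ± 102 (SD, n = 5 each). Old minus young gave a log2 value of −1.39 ± 0.52 (SE; limma adjusted p = 0.273), which ranked 16 from the bottom among the 9703 genes. Without old replicate 5, the library with the lowest IP efficiency, the difference was −0.86 (limma adjusted p = 0.313). With IP efficiency as a covariate it was −0.85 (limma adjusted p = 0.574), and with the window extended to 20 kb it was −0.37 (limma adjusted p = 0.483).

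For a view of single regions, called regions that overlapped in any libraries were merged into 1 interval. The merged region inside the Sds gene spanned 120475598 to 120481309 on chromosome 5 and covered the lower annotated end of the gene. It held 257, 284.5, 137, 324 and 239 scaled tags in young replicates 1 to 5, and 98.4, 133.5, 60.4 and 138.4 in old replicates 1 to 4, and was not called in old replicate 5. Young replicate 3 lay just below old replicate 4, and every other young library lay above every old one. Because 1 library lacked a call, this region entered only a fit over regions called in at least 5 libraries, a filter chosen after seeing the data, in which the difference was −2.40 ± 1.04 (SE; limma adjusted p = 0.401). The library without a call entered that fit as 0. The second Sds region (120465709 to 120474698) overlapped the neighbouring gene Sdsl, a serine dehydratase-like gene. It held 264 to 359 scaled tags in young and 78.6 to 297 in old libraries. Its log2 difference was −0.42 ± 0.25 (SE; limma adjusted p = 0.429) in the fit over regions called in all 10 libraries. In the fit over regions called in at least 5 libraries, which gave the −2.40 above, it was −0.56 ± 0.26 (SE; limma adjusted p = 0.424). The window of Sds thus took part of its tags from a region shared with Sdsl. That part depended on how the calls were split at the window edge. In young replicates 2 and 5 a single call, of 358.8 and 303 tags, was counted whole. In young replicate 3 the merged region held 308.5 tags, but only calls of 89.2 and 15.7 touched the window.

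At Tat, the first enzyme of tyrosine breakdown (gene ID 234724, chromosome 8, 109986078 to 109999804), the ages did not overlap in scaled tags. The window held 811, 918, 680.3, 1544 and 1093 tags in young replicates 1 to 5 and 662, 637, 646, 454 and 402 in old replicates 1 to 5. The young mean was 1009 ± 335 and the old mean 560 ± 122 (SD, n = 5 each). Such separation was seen in 9.32% of all genes tested, nearly always with old libraries lower (9.23%), so 1 of 9 members is near the background. After centring, young libraries lay between 9.39 and 10.14 and old libraries between 9.11 and 9.42 on the log2 scale, and the ages overlapped slightly (non-overlap in 3.9% of all genes on that scale). Old minus young was −0.48 ± 0.16 on the log2 scale (SE; limma adjusted p = 0.236). With any 1 library left out it stayed between −0.57 and −0.38.

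The strongest merged region at Tat was the longest of the 41 at the 9 genes. In young replicates 4 and 5 it was 1 continuous call, and in the other libraries 2 or more separate calls made it up. It reached from 109977741 to 109996665, covering the annotated start site whose upstream bases are shown above and the lower end of the gene span, and overlapped no other protein-coding gene. It held 709.5, 978.5, 732, 1466 and 1032 scaled tags in young and 670.5, 686.5, 736, 489.8 and 402 in old replicates 1 to 5. Only old replicate 3 reached into the young range. Part of its tags here lay in calls outside the window, which the window sum left out. The separation of the ages in window tags thus depended on which calls touched the window. The difference was −0.41 ± 0.15 (SE; limma adjusted p = 0.184). A smaller region beyond the far end of the gene (110003186 to 110005682) held 66.4 ± 26.1 in young and 60.2 ± 17.4 in old libraries (0.21 ± 0.32 SE, limma adjusted p = 0.779). The called length of the Tat window was 17243 ± 3508 bp in young and 12078 ± 1606 bp in old libraries, a log2 difference of −0.34 (limma adjusted p = 0.376). Per kb of called length the tags were 57.8 ± 10.3 and 46.0 ± 4.71, a log2 difference of −0.14 (limma adjusted p = 0.754), so length moved along with the tags.

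**Figure D2:**
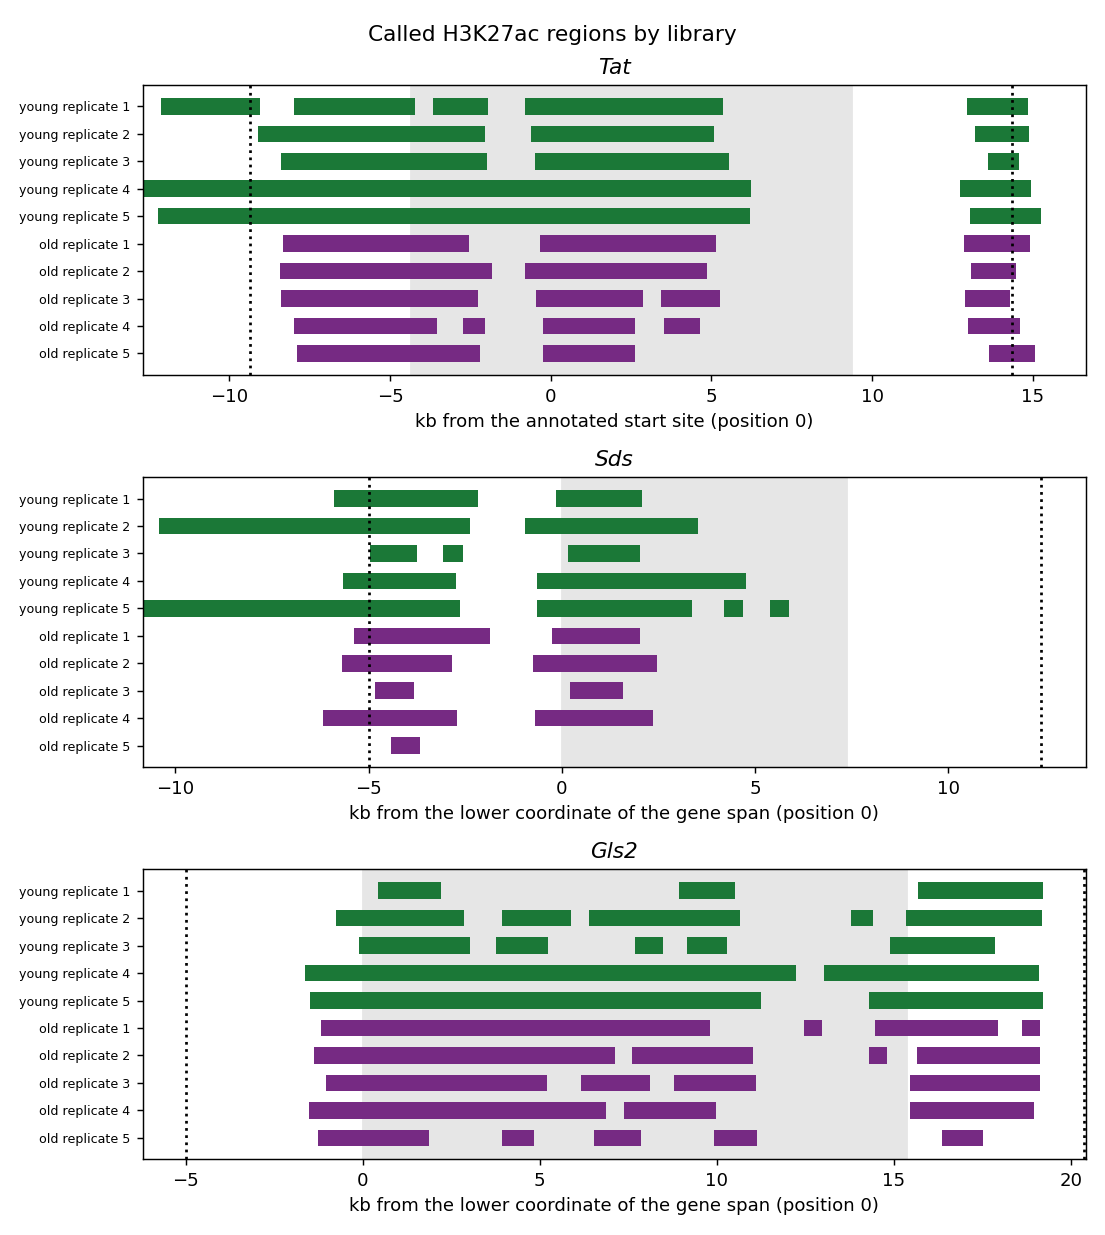
Called H3K27ac regions (bars) at Tat, Sds and Gls2 in each library (rows, young in green, old in purple), in kb from the annotated start site of Tat or from the lower coordinate of the Sds and Gls2 gene spans. Grey marks the gene span and dotted lines the window extended by 5 kb; at Sds the bar inside the gene is missing in old replicate 5.

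The later steps of tyrosine breakdown gave smaller differences. Hpd (gene ID 15445, chromosome 5, 123171807 to 123182723) held 226.5, 772, 447.5, 1084 and 739 scaled tags in young replicates 1 to 5 and 599.5, 499, 468.5, 388 and 379 in old replicates 1 to 5. The young libraries thus enclosed all old ones, with young replicate 1 lowest of the 10. Between the ages the log2 difference came to 0.02 ± 0.27 (SE, limma adjusted p = 0.981), with an unadjusted 95% interval from −0.58 to 0.62, and without young replicate 1 it turned to −0.25 (limma adjusted p = 0.509). A merged region over the start site of Hpd (123175946 to 123183692) was called in 10 of 10 libraries. The called region that held the start site carried 87.5% to 100% of the tags of the window. The window also held 6 weak regions called in 1 to 6 libraries each.

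Hgd (gene ID 15233, chromosome 16, 37579742 to 37632026) held 989, 1006, 735, 1207 and 766 scaled tags in young and 729.7, 637, 885, 588 and 484 in old replicates 1 to 5. Of the old libraries only replicate 3 lay inside the young range, just as for the main region of Tat. For Hgd the log2 difference was −0.16 ± 0.13 (SE, limma adjusted p = 0.588; 95% interval −0.44 to 0.11). Although Hgd is the longest gene of the 9, at 52285 bp, its signal was gathered at the start site. The called region there, within the merged interval 37578039 to 37586345, held 90.05% to 100% of the window's tags. The whole window had a median of 21.2-fold over input across the 10 libraries, the highest median of the 9.

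Gstz1 (gene ID 14874, chromosome 12, 87147161 to 87164723) held 584, 939, 668, 969 and 736 scaled tags in young and 722, 661, 697, 660.5 and 562 in old replicates 1 to 5, and the old libraries lay within the young range except replicate 5. The means were 779 ± 169 and 660.3 ± 60.9 (log2 difference 0.13 ± 0.08 SE, limma adjusted p = 0.525). RefSeq gave it 2 start sites. The one inside the gene lay in a called region in 10 of 10 libraries and the outer one, where Gstz1 overlaps Pomt2, in 5 of 10. The merged region over the outer start site, at 87147165, was nevertheless called in 10 of 10 libraries. Where the call missed that site, it began shortly after it, between 87147183 and 87147557. The outer region held 293 ± 48.8 and 212 ± 17.4 tags (log2 difference −0.16, limma adjusted p = 0.586), the inner one 486.5 ± 159.5 and 446 ± 49.6 (0.23, limma adjusted p = 0.48). Their log2 differences had opposite signs, and neither passed.

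Fah (gene ID 14085, chromosome 7, 84585159 to 84605942) held 487, 883, 719, 744 and 616 scaled tags in young and 707, 648, 627.5, 520.1 and 467 in old replicates 1 to 5. The ages overlapped over most of their range. For Fah the log2 difference was 0.14 ± 0.10 (SE, limma adjusted p = 0.567; 95% interval −0.09 to 0.36). The called region over the start site, within the merged interval 84599794 to 84607874, held 94.7% to 100% of the tags, and the 4 other regions in the window were called in 1 library each. Of the tyrosine pathway, Tat and Hgd had values below 0 and Hpd, Gstz1 and Fah above 0. The signs of Hpd, Gstz1 and Fah turned without centring, to −0.32, −0.22 and −0.20.

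**Figure D3:**
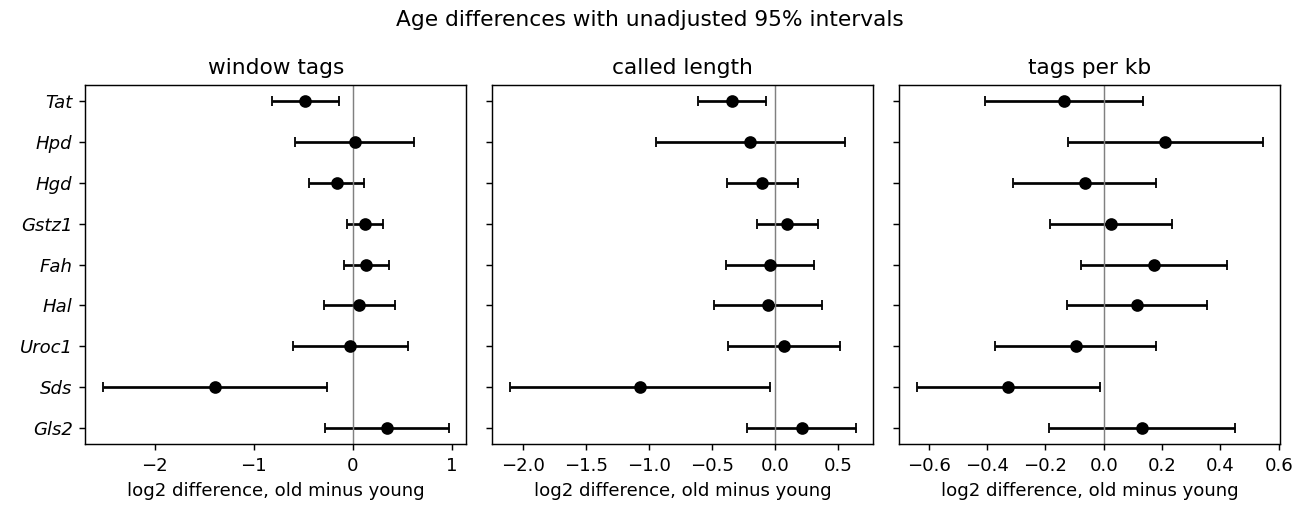
Log2 differences, old minus young, for the 9 genes, with a panel each for window tags, length of the calls and tag density per kb (horizontal axes), with unadjusted 95% intervals. The tags intervals of Sds (−2.52 to −0.26) and Tat (−0.82 to −0.14) exclude 0, and no gene passed after adjustment over 9703 genes.

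The histidine genes did not separate the ages. Hal (gene ID 15109, chromosome 10, 93488768 to 93516761) held 276, 385, 305, 429 and 272 scaled tags in young and 365.5, 232, 279, 346 and 176 in old replicates 1 to 5, a log2 difference of 0.06 ± 0.16 (SE, limma adjusted p = 0.89; −0.28 without centring). Its tags lay in a region over the start site (93487035 to 93491678, 182 ± 49.5 in young and 158 ± 19.1 in old libraries) and in a region over the far end (93515050 to 93523490). The second of these overlapped Amdhd1, the gene of the enzyme that follows Uroc1 in histidine breakdown. It varied widely, from 72.0 to 210.1 in young and from 51.6 to 203 in old libraries.

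Uroc1 (gene ID 243537, chromosome 6, 90333239 to 90364551) held 189, 792.5, 482, 639 and 548 scaled tags in young and 337.5, 350.3, 536, 393 and 283.5 in old replicates 1 to 5. Young replicate 1 was the lowest of all, and old replicate 3 lay above young replicates 1 and 3. The log2 difference was −0.03 ± 0.27 (SE, limma adjusted p = 0.974; 95% interval −0.61 to 0.55). The merged region at the start site (90331693 to 90337913) was called in all libraries with 380.0 ± 126 tags in young and 306 ± 74.8 in old. A second region (90368625 to 90371997) overlapped the neighbouring gene Zxdc and was called in 4 young and 4 old libraries. The start site itself lay outside every called region in young replicate 1.

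Gls2 (gene ID 216456, chromosome 10, 128194635 to 128210004) had the widest spread in young hepatocytes. Its window held 346, 829, 644, 1578 and 1203 scaled tags in young replicates 1 to 5 and 886, 985, 871.5, 917 and 509.9 in old replicates 1 to 5. The young values ran from below to above all old ones. The coefficient of variation was 52.3% in young and 22.3% in old libraries. At Hpd it was nearly as wide, at 50.2% in young and 19.4% in old libraries. The log2 difference of Gls2 was 0.35 ± 0.29 (SE, limma adjusted p = 0.611), with an unadjusted 95% interval from −0.28 to 0.97. It fell to 0.0040 without centring and to 0.10 without young replicate 1 (limma adjusted p = 0.993 and 0.853). The widest spread was in the merged region over most of the gene (128193013 to 128206865), which held 126, 534.5, 416, 1214 and 957 tags in young and 641, 771, 611, 714 and 425 in old replicates 1 to 5. The region at the other end, shared with Spryd4, varied less, with 220.3 to 364 in young and 85.0 to 260.3 in old libraries (log2 difference −0.21, limma adjusted p = 0.617; 0.59 and limma adjusted p = 0.527 at the first).

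In all, the 9 windows touched 41 merged regions. Of these 13 were called in all 10 libraries and 17 in 1 library. Regions called at 1 age only were 13 in young and 8 in old libraries. These include the 17, which can belong to 1 age only. The same shares over all merged regions were not computed, so no age difference is read from them. Every gene had at least 1 region called in all libraries. None of the 13 tested regions (0) passed by limma, against 1.07% of the 12550 regions tested (1 of the 13, at Tat, had an unadjusted p under 0.05, against 17.2% of all regions), and 6 of the 13 had a difference below 0, against 51.7% of all. Seen per kb of called length, Hal had the lowest level of the 9, at 39.4 scaled tags per kb as a mean over 10 libraries, followed by Sds with 49.9, Tat with 51.9 and Gls2 with 63.3. Uroc1 had 74.4, Gstz1 86.5, Hgd 91.0, Hpd 100.3 and Fah 105. The median of all genes tested was 82.0, so the histidine, serine and glutamine genes and Tat lay below it and the other 4 tyrosine genes above it. Neighbours in this order, such as Sds and Tat (young 58.8 ± 12.6 and 57.8 ± 10.3) or Hpd and Fah (99.8 ± 25.3 and 106 ± 21.6), were within the spread of the libraries.

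Called length at Sds was 8714 ± 4150 bp in young and 4302 ± 2577 bp in old libraries, a log2 difference of −1.07 (limma adjusted p = 0.494). Tags per kb there were 58.8 ± 12.6 and 40.9 ± 7.56, a log2 difference of −0.33 (limma adjusted p = 0.446). By called length 0 of 9 members passed with limma, against 0.0103% of all genes, and by tags per kb 0 of 9, against 0.0928%. At an unadjusted p under 0.05 there were 2 of 9 by length, Tat and Sds, against 9.78% of all genes, and 1 of 9 per kb, Sds, against 10.6% of all genes, which is near that background. The median log2 difference over the members was −0.05 in length and 0.03 in tags per kb, beside 0.01 and 0.01 over all genes.

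The members also differed in how they varied among libraries. Old replicate 5 was the lowest old library at 9 of 9 members in scaled tags and at 2 of 9 after centring. Young replicate 1 was the lowest young library at 5 of 9 both before and after centring (Hpd, Gstz1, Fah, Uroc1 and Gls2), whereas at Hgd it was the highest after centring. Pearson's r between centred log2 values of 2 members over the 10 libraries, given as a description, ran from −0.69 (Hgd and Fah) to 0.81 (Hpd and Gls2) over 36 pairs, with a median of 0.14. The libraries share depth and IP efficiency across all genes, and the high value of Hpd and Gls2 includes young replicate 1, which was lowest at both. Among genes on other chromosomes than the members, Yaf2 (r = 0.92) and Rpain (r = 0.88) were among the 3 whose values followed the members' mean most closely over 10 libraries. Their own log2 differences were −0.27 and −0.24 (limma adjusted p = 0.682 and 0.517). Both genes were picked for the highest r in a search over all tested genes of those chromosomes, so these r values are no test. The members' mean deviation of −0.40 in old replicate 5 included −2.83 at Sds.

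**Figure D4:**
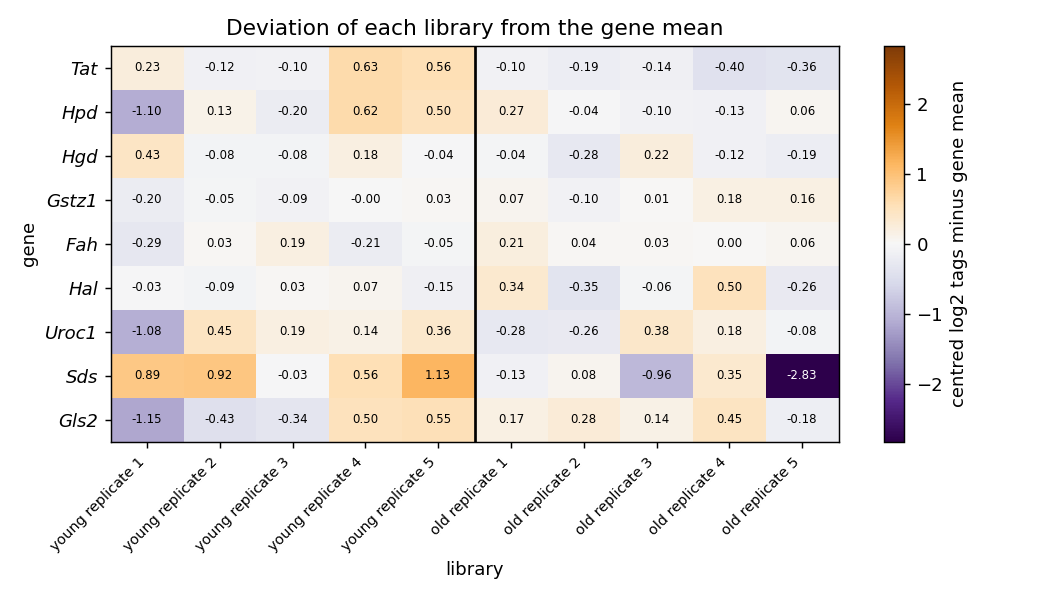
Centred log2 window tags of the 9 genes (rows) in the 10 libraries (columns, young left and old right of the line), each minus the mean of the gene; numbers are log2 deviations. Young replicate 1 has −1.10 at Hpd, −1.08 at Uroc1 and −1.15 at Gls2, and old replicate 5 has −2.83 at Sds.

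Among 24 other genes of phenylalanine, tyrosine, histidine, serine, glycine, threonine, glutamine and glutamate metabolism, 22 had regions in all libraries and 0 passed by limma in either direction (6 of the 22 had an unadjusted p under 0.05, against 13.7% of all genes). Tdh, the threonine dehydrogenase gene, had no region in any library. Of the 22 genes 14 had a difference below 0, against 49.6% of all genes, with a median of −0.14, beside 0.00 for all genes. By pathway, 3 of 6 other phenylalanine and tyrosine genes, 0 of 3 histidine genes, 7 of 9 serine, threonine and glycine genes and 4 of 4 glutamine and glutamate genes were below 0. The lowest were Sdsl at −0.78 ± 0.33 (SE, limma adjusted p = 0.332), whose window shares a region with Sds, and Shmt1, the cytosolic serine hydroxymethyltransferase, at −0.37 ± 0.15 (limma adjusted p = 0.325). The highest were Hnmt, which methylates histamine, at 0.81 ± 0.24 (limma adjusted p = 0.193) and Agxt, the alanine-glyoxylate aminotransferase, at 0.77 ± 0.28 (limma adjusted p = 0.271). Amdhd1 and Ftcd, which complete histidine breakdown, had 0.04 and 0.19 (limma adjusted p = 0.925 and 0.627). Both were added to the named genes after their values were seen.

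Of 12 regulators of amino acid breakdown in liver, 11 had a difference below 0 and 0 passed by limma (4 had an unadjusted p under 0.05), with a median of −0.10. Over all genes tested 49.6% had a difference below 0 and 13.7% an unadjusted p under 0.05. The lowest were Nr1h4, the bile acid receptor FXR, at −0.61 ± 0.26 (SE, limma adjusted p = 0.333) and the hepatocyte factor Hnf4a at −0.46 ± 0.17 (limma adjusted p = 0.267). The highest were Cebpb at 0.09 ± 0.11 and Cebpa at −0.02 ± 0.10 (limma adjusted p = 0.748 and 0.934). Nr3c1, the glucocorticoid receptor, had −0.05 ± 0.11 and Gcgr, the glucagon receptor, −0.09 ± 0.16 (limma adjusted p = 0.871 and 0.825), both chosen for their link to Tat and Sds after their values were seen. Klf15, likewise named after its values were seen, had −0.37 ± 0.10 (limma adjusted p = 0.153), the lowest adjusted p of the 12.

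**Figure D5:**
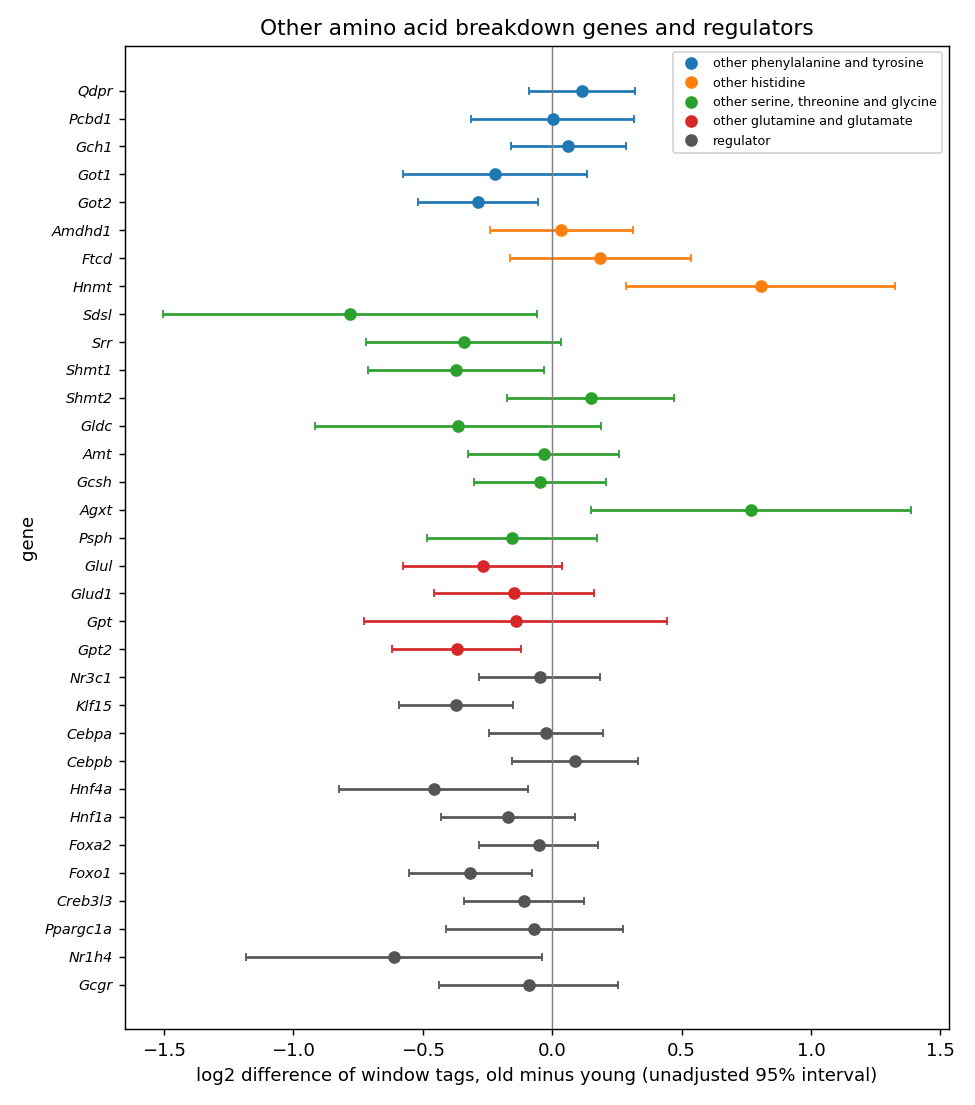
Log2 differences of window tags, old minus young (horizontal axis, with unadjusted 95% intervals), of 21 other pathway genes and 12 regulators (rows, coloured by list). Hnmt (0.81) and Agxt (0.77) lie farthest to the right and Sdsl (−0.78) farthest to the left.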

How the data were processed

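H3K27ac region lists of 10 hepatocyte libraries, 5 per age, were analysed; the input libraries enter through the authors' region calls. HOMER in histone mode had been run by the authors on each library with its own input as background, per the file headers, stitching 500 bp peaks that passed 4-fold over input at a Poisson p of 1e-04. The submitters' processing notes name mm10 as the build. The aligner and the HOMER version: not given in the sources used here. Each region's signal was its tags, scaled by the authors to 10000000 per library, and the unscaled tags, deposited by the authors in steps of 0.5, were treated like expected counts and rounded for edgeR and DESeq2. The input signal, the fold (ratio) over input, the score and, as an other unit, the length in bp were deposited by the authors; the fold of a window was recomputed as its unscaled tags over its input tags.

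For all protein-coding genes, scaled tags and lengths of regions touching the window were summed. Main tests used limma 3.58.1 (variance trend) on log2(tags + 1), or log2 length, in genes called in all 10 libraries. Libraries were centred on the median gene, and tests were two-sided with Benjamini-Hochberg adjustment at 0.05. The added 1 shrinks differences of weak genes, while a region that was not called adds no tags, which can enlarge them. Merged regions (overlap of at least 1 bp) were tested likewise. A merged region can hold called regions outside a gene's window. Alternatives included edgeR 4.0.16, DESeq2 1.42.0, other windows, filters and scalings, a covariate and left-out libraries. R 4.3.3, Python 3.11.15, pandas 2.3.3 and numpy 2.4.6 were used, and the fits were tested on simulated data. A region that was not called can still hold signal, and counting limits the precision of weak regions. The members and lists were chosen with earlier results of these data known. All members were named; of the other pathway genes and of the regulators, those past the threshold or else the 2 highest and 2 lowest. The 3 genes most like the members' mean were chosen by Pearson's r. Single values of 3 genes are not reported here; the counts over lists include them.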

Additional observations from a re-analysis of the deposited data

Results flagged for a closer look

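In the 36 sets of 5 libraries examined for a sample far from the others, old replicate 5 stood apart at Gls2. It held 509.9 scaled tags there, a gap to the next old library of 0.761 of the range of the old group, above Dixon's critical value of 0.71. Its called length at Gls2 was 7778 bp, with a gap of 0.794 of the range. Chance marks about 1 in 20 such sets. This library also had the lowest IP efficiency and the fewest tags of the 10, and their part in the Gls2 values was not tested.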

How the results depend on the processing

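No member passed the threshold under any of the 23 alternatives for window tags (199 values, lowest adjusted p 0.0603, Tat by limma without centring) or the 18 for called length (154 values, lowest 0.245). The 2 largest differences kept their sign wherever they could be computed: Sds from −1.73 to −0.33, and Tat from −0.82 to −0.14. Sds had no value without extension of the window, and the stricter score left values for Gstz1 and Uroc1 only.

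Signs near 0 turned. For window tags, without centring Hpd had −0.32, Gstz1 −0.22, Fah −0.20 and Hal −0.28. Hpd had −0.11 by edgeR, −0.0939 by DESeq2 and −0.0126 with genes called in at least 5 libraries. With the gene span alone (0 kb) Hal had −0.0455 and Uroc1 0.18, and with 20 kb Hpd had −0.13, Hal −0.51 and Uroc1 0.0757. With the stricter score Gstz1 had −0.49 and Uroc1 0.0736, and Uroc1 had 0.15 with IP efficiency as a covariate and 0.0740 without young and old replicate 5. With 1 library left out Hpd ran from −0.25 to 0.18, Hal from −0.0500 to 0.16 and Uroc1 from −0.30 to 0.0834. For called length, Gstz1 had −0.0619 and Uroc1 −0.0913 without centring, Gstz1 −0.56 with the stricter score and Hpd 0.40 with the covariate; with 1 library left out Hpd ran from −0.52 to 0.0326, Fah from −0.0945 to 0.11, Hal from −0.19 to 0.0796 and Uroc1 from −0.13 to 0.18.

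Counts over all genes moved more. The 21 genes by window tags became 9 per kb, 87 without centring (85 lower in old), 56 with cyclic loess (22 lower), 47 by edgeR, 298 by DESeq2, 1 with at least 5 libraries, 42 at 20 kb, 0 with the stricter score (188 at an unadjusted limma p under 0.05), 0 with the covariate (1204 likewise), 8 without both replicates 5, and 2 (without old replicate 4) to 61 (without young replicate 1) with 1 library left out. The 1 gene by length became 0 without centring, at 0 kb, with the stricter score, with the covariate and without both replicates 5, 9 at 20 kb, and 0 to 7 with 1 library left out. The 134 regions became 40 per kb, 725 without centring, 619 by DESeq2, 1 with the stricter score, 57 with at least 5 libraries, 13 without both replicates 5, and 30 to 246 with 1 library left out. Leaving out both replicates 5, and the filter of 5 libraries for regions, were chosen after seeing the data.

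Same-numbered young and old libraries deviated together with r from −0.06 to 0.18, so the numbers were not taken as pairs. With a replicate block the counts were 4 genes by tags, 6 by length and 74 regions, and Tat and Sds had adjusted limma p of 0.312 and 0.306. Weak regions near the calling limit are limited by depth, since a region not called can still hold signal.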
